A study of Mus musculus with 6 samples.

Results

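Gene-end peaks are the open chromatin regions that HOMER, the program used for the study's peak annotation, placed in the 3' untranslated region (UTR) of a transcript or at its transcription termination site (TTS), which HOMER takes as 100 bp before to 1000 bp past the annotated transcript end. Members were the peaks with either annotation that lay more than 3000 bp from the nearest transcription start site (TSS), the limit beyond which peaks were termed distal. There were 5346 such peaks, 3116 TTS and 2230 3' UTR, out of 122399 distal peaks and 175929 peaks in all. They belonged to the ends of 3452 genes, and the rule used the annotation and the TSS distance but no tag values.

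The peaks came from ATAC-seq, which reads out where a transposase can reach the DNA, on mouse Usp18+/f UBCER-Cre AE9a leukaemia cells. Usp18 encodes a protease that strips ISG15 from proteins and damps the interferon response, AE9a is a shortened form of the leukaemia fusion AML1/ETO, and UBCER-Cre is a recombinase made from the broadly active ubiquitin C promoter that stays inactive until tamoxifen is given. All cells carried 1 floxed Usp18 allele, the oncogene with a GFP marker on a retrovirus, and the recombinase, and grew in recipient mice. Sick mice received oil (replicates 1, 2 and 4) or tamoxifen (replicates 1, 3 and 4), which is meant to delete the floxed allele and leave 1 working copy, and GFP+ Lin- c-Kit+ spleen cells were sorted 3 days after the first injection. No group without the recombinase or without AE9a was part of the comparison, so the effects of tamoxifen and of the active recombinase cannot be told apart from that of losing the allele. The study used young adult mice of both sexes. Whether the libraries are of different mice is not in the labels. The study's methods give 3 mice per group, sorted after 3 injections, for the set that was also used for ATAC-seq. Elsewhere they state that ATAC-seq was run in duplicate. For this reason n counts libraries, and p-values measure only the spread between these libraries, which may be technical.

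RNA polymerase II cleaves the new RNA behind a polyadenylation signal at the 3' end of a gene and then keeps transcribing for some distance before it leaves the template. The 3' UTR is the last, untranslated stretch of the messenger, where microRNAs and proteins that set its stability bind. Open chromatin at gene ends can mark enhancers that happen to lie there, the start of an antisense or neighbouring transcript, or the stretch over which polymerase terminates. Heat shock genes are switched on by heat shock factor 1, which releases paused polymerase, and transcription past annotated gene ends is known from stressed cells.

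Totals ran from 57.4 to 74.7 M tags per library (1 M is 1000000) and from 17.5 to 21.1 M tags in peaks, and the median gene-end peak held 41 to 53 raw tags per library. Over the gene-end peaks pairs of oil libraries had correlations of 0.960 to 0.963 (log2 tags, a description across peaks that share libraries and depth), tamoxifen replicates 1 and 3 had 0.952, and tamoxifen replicate 4 had 0.915 and 0.927 with these but, with the oil libraries, 0.940 to 0.946. Tamoxifen replicate 4 thus stood apart from its group, and results that turn on it are given with and without it. Of the markers listed for the sorted cells, the promoters of Kit, Cd34, Flt3 and Runx1 had peaks, that of Kit at the 99.2nd percentile of all peaks, whereas Mpo had none. Cd3e, Cd3d, Ms4a1, Ly6g, S100a8 and S100a9 had no promoter peak, Cd3g stood at the 4.00th percentile, whereas the erythroid gene Klf1 stood at the 91.3rd. The part of other cell types in the results was not tested. The Cd34 promoter had 94.6 ± 21.8 normalised tags in the oil group and 269.7 ± 60.0 in the tamoxifen group (SD, n = 3 each; log2 change 1.50, DESeq2 adjusted p = 8.32e-12). Usp18 had no gene-end peak, and the 9 peaks at its promoter and in its introns had log2 changes of -0.17 to 0.28 with adjusted p of 0.931 or more. None of them checks the deletion, because the position of the floxed exons was not given in the sources used here.

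Sequences are shown for called gene-end peaks (see the test below), as 30-base windows of mm10 around a motif, whose letters are in capitals. The first set is for the polyadenylation signal AATAAA, an element of gene ends. On either strand 4 of the 24 called peaks held it (16.7%, against 20.9% of other distal peaks). Each line gives the strand on which the letters read.
Wdr95 TTS peak, chr5:149612768-149612797, plus strand: gagctgtgagagAATAAAtgtgtgtttgaa
Hopx TTS peak, chr5:77086629-77086658, plus strand: aaaagccaagtaAATAAAcatctcctatcc
Rgs1 TTS peak, chr1:144244239-144244268, plus strand: gattataatagaAATAAAaatgtctgcctt
Rabgap1 3' UTR peak, chr2:37565758-37565787, minus strand: agaacaaagcccAATAAAcctcaagtgaaa
Only the match in the Wdr95 peak read in the direction of its own gene, since Hopx and Rgs1 lie on the minus strand and Rabgap1 on the plus strand. Wdr95 ends at chr5:149611894, however, so this match lies past the annotated end. The centres of the Wdr95, Hopx and Rgs1 peaks lay 986.5, 272.5 and 306.5 bp past their transcript ends, and that of the Rabgap1 peak lay at -708 bp. Whether any of these matches serves as a polyadenylation signal was not tested. A second set holds letters recognised by blood transcription factors, namely AP-1 (TGANTCA), PU.1 (GAGGAAGT) and RUNX (TGTGGTTT), the last being the DNA target shared by AML1 and the AML1/ETO fusion.
Wdr95 TTS peak, AP-1, chr5:149612894-149612923, plus strand: tccggcagtggTGAATCActgttttgctcc
Myo5a 3' UTR peak, AP-1, chr9:75222053-75222082, plus strand: tctgccattggTGAGTCAgagtaagcttgg
Ctla4 TTS peak, PU.1, chr1:60916318-60916347, minus strand: cgggtaagaaaGAGGAAGTggggaatctgg
Asphd2 3' UTR peak, RUNX, chr5:112385005-112385034, minus strand: gacgctgccgcTGTGGTTTcgagtccacaa
The AP-1 letters of the Myo5a peak lay 2 bp from the peak's centre and those of the Wdr95 peak 27 bp from it. A match is a description of the letters and not of a bound factor.

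The first question was how much of the accessible chromatin at gene ends differed between the tamoxifen group, treated to delete 1 Usp18 allele, and the oil group. Gene-end peaks held 2.197% ± 0.0484 (SD, n = 3) of the tags in peaks in the oil group and 2.201% ± 0.0287 (SD, n = 3) in the tamoxifen group, a difference of 0.00380 percentage points that was smaller than the spread between libraries (exact permutation test, two-sided, p = 0.8, where 0.1 is the smallest p this design allows). Per library the share was 2.17%, 2.17% and 2.25% after oil and 2.23%, 2.198% and 2.17% after tamoxifen, so the groups overlapped throughout. The TTS share was 1.35% in both groups (exact permutation p = 1), and the 3' UTR share was 0.848% ± 0.0190 and 0.852% ± 0.0151 (SD, n = 3 each, exact permutation p = 0.8). The median log2 fold change, tamoxifen over oil, was -0.02 over gene-end peaks and -0.00 over all distal peaks. In bulk cells such as these, fewer cells with an open site and a less open site in each cell cannot be told apart.

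Individual gene ends did differ. DESeq2's Wald test, fitted over all 122399 distal peaks with Benjamini-Hochberg adjustment, called 24 gene-end peaks, meaning a more than 2-fold difference together with an adjusted p under 0.05, which is 0.449% of them, against 0.851% of all distal peaks. More tags after tamoxifen were found at 20 called gene-end peaks, 0.374% against 0.763% of distal peaks, and fewer tags at 4, 0.0748% against 0.0882%. TTS and 3' UTR peaks were called at like shares, 14 of 3116 (0.449%, 11 higher and 3 lower) and 10 of 2230 (0.448%, 9 higher and 1 lower). Among the other distal classes the share was 0.621% of 3221 exon peaks, 0.834% of 56468 intergenic peaks and 0.925% of 56842 intron peaks. These shares are descriptions, and whether the classes differ was not tested.

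**Figure D1:**
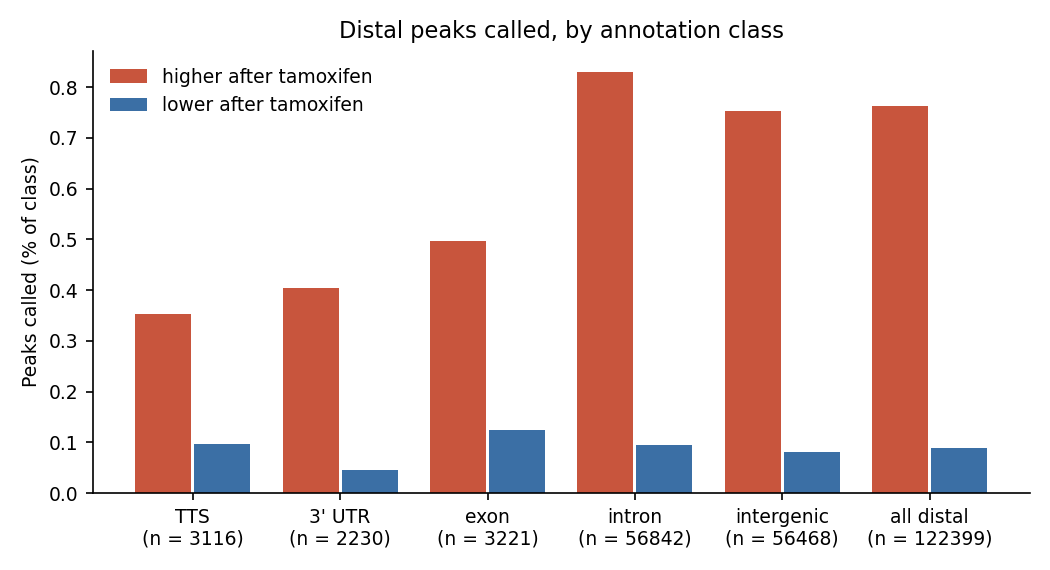
Share of distal peaks called higher (red bars) or lower (blue bars) after tamoxifen, as a percentage of each annotation class, with the number of peaks in the class under its name. The bars for higher peaks stand at 0.353% for TTS and 0.404% for 3' UTR peaks, under the 0.763% of all distal peaks, and those for lower peaks at 0.0963% and 0.0448%, on either side of 0.0882%.

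At weaker thresholds the share of gene-end peaks, both directions together, was also under that of all distal peaks, but close to that of exon peaks. At an adjusted p under 0.05 without a fold limit there were 49 gene-end peaks (0.917%, 39 higher and 10 lower). This compares with 1.41% of distal peaks (1509 higher and 220 lower) and 0.900% of exon peaks. At an unadjusted p under 0.05 there were 375 (7.01%, 224 higher and 151 lower), against 9.94% of distal and 7.30% of exon peaks. The 3 tamoxifen libraries all lay above the 3 oil libraries at 486 gene-end peaks (9.09%) against 12.5% of distal peaks, and all below at 541 (10.1%) against 10.6%. Tag levels were alike, with a median of the mean tag number of 45.9 (lower and upper quartile 28.9 and 90.2) at gene ends against 44.1 over distal peaks, and a median standard error of the log2 change of 0.28 against 0.29. The log2 changes of gene ends reached less far up, with an upper quartile of 0.16 against 0.22 and a 95th percentile of 0.53 against 0.66, while the lower quartiles were -0.21 in both. This was not particular to gene ends, since distal exon peaks had an upper quartile of 0.17 and a 95th percentile of 0.54.

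Whether a peak was listed by the authors for 1 group or both moved with the calls. Of 3573 gene-end peaks in the lists of both groups, 7 were called (0.196%, against 0.623% of distal peaks in both lists), all higher. Of 609 in the tamoxifen list alone 12 were called (1.97%, against 2.88% of distal peaks there), all higher. Of 1164 in the oil list alone 5 were called (0.430%, against 0.354%), 1 higher and 4 lower. Because the same libraries gave the lists, these counts are not independent of the calls. Gene-end peaks fell into the oil list alone at 21.8% and into the tamoxifen list alone at 11.4%, against 18.5% and 12.3% of distal peaks. Distal exon peaks were close to gene ends here, at 21.5% and 11.5%.

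**Figure D2:**
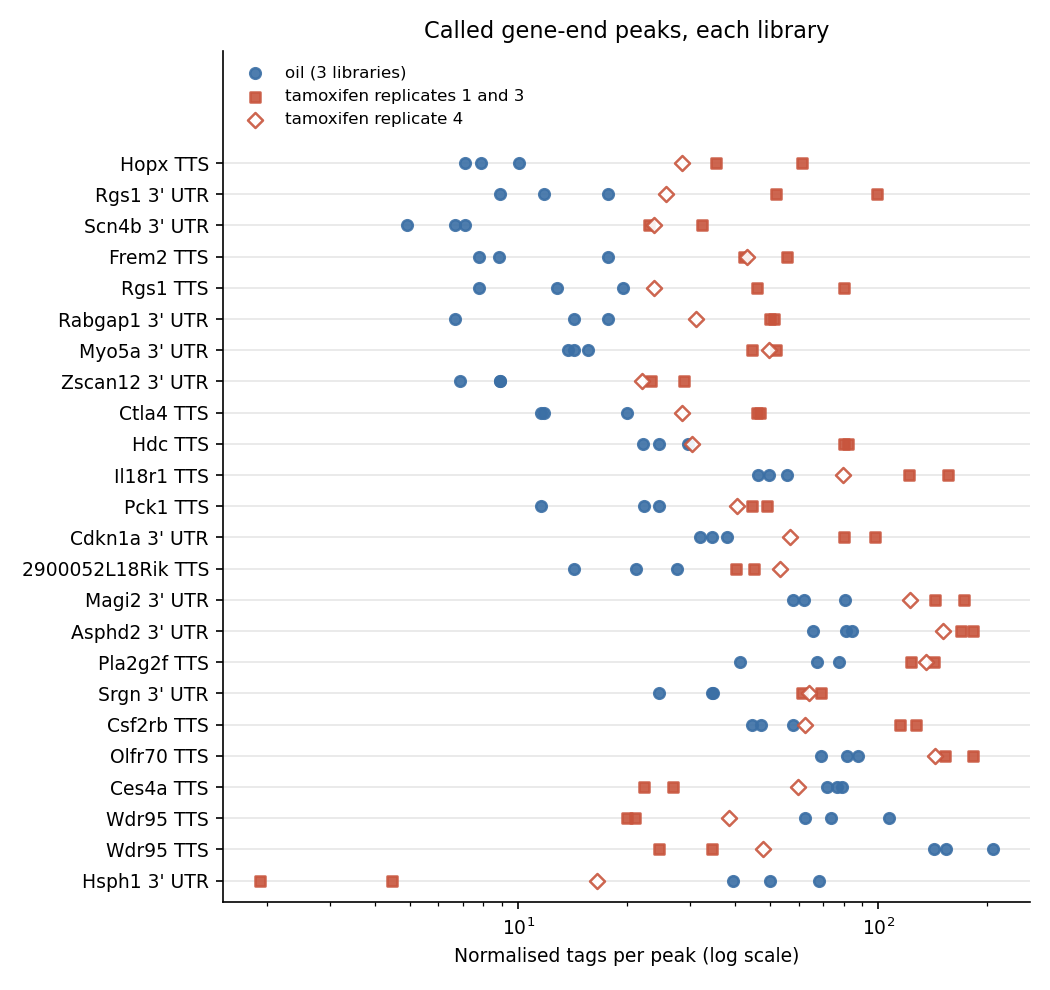
Normalised tags (log axis) of the 24 called gene-end peaks in each library, ordered by log2 fold change, with blue circles for the 3 oil libraries, red squares for tamoxifen replicates 1 and 3, and open diamonds for tamoxifen replicate 4. The groups do not overlap at any of the 24 peaks, against 19.2% of all gene-end and 23.1% of all distal peaks without overlap. The 24 were called from these same values, so this is no separate evidence. At 18 of the 24 the tamoxifen library nearest to the oil libraries is replicate 4.

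Fewer tags after tamoxifen were called at 4 gene-end peaks, 3 of which, of Wdr95 and Hsph1, lay in 1 stretch of chromosome 5. Hsph1 encodes a large heat shock protein of the HSP110 family that resets HSP70 for its next client, and Wdr95, a gene for a WD-repeat protein, ends 4948 bp past the end of Hsph1 on the opposite strand, so that the 2 genes run towards each other. The Wdr95 TTS peak at chr5:149612635-149613126, whose AATAAA and AP-1 windows are printed above, had 154, 143 and 208 normalised tags after oil and 34.5, 24.5 and 47.8 after tamoxifen. Every tamoxifen library stood far below the lowest oil library, and the log2 fold change was -2.23 (SE 0.25, DESeq2 adjusted p = 9.35e-15), the smallest adjusted p of any gene-end peak. The Wdr95 TTS peak next to it, at chr5:149612158-149612394, had 62.4, 73.8 and 107 tags after oil and 21.1, 20.1 and 38.6 after tamoxifen (log2 change -1.60, SE 0.31, adjusted p = 0.000117). At both, tamoxifen replicate 4 was the library nearest to oil.

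Hsph1 itself had 3 gene-end peaks. The called one, at chr5:149617123-149617345 in its 3' UTR, exon 18 of 18, had 50.1, 39.4 and 68.5 tags after oil and 1.92, 4.46 and 16.5 after tamoxifen, a log2 change of -2.77 (SE 0.79, adjusted p = 0.0377). Fewer than 5 normalised tags remained in tamoxifen replicates 1 and 3, while replicate 4 kept several times more. The neighbouring 3' UTR peak at chr5:149616852-149617083 had 60.2, 43.3 and 81.0 tags after oil and 3.84, 3.35 and 25.7 after tamoxifen (log2 change -2.48, adjusted p = 0.193). The wide TTS peak at chr5:149615816-149616752 had 226, 169 and 327 after oil and 15.3, 26.8 and 115 after tamoxifen (log2 change -2.20, adjusted p = 0.248). Neither passed the test with all libraries, although the groups did not overlap. Without tamoxifen replicate 4 both were called, at log2 changes of -4.09 (adjusted p = 4.68e-08) and -3.53 (adjusted p = 3.96e-10).

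These 5 gene-end peaks were part of a longer run. In the fit of all 175929 peaks, 53 peaks lay between the part of Hsph1 next to its promoter and introns of Wdr95, a span of 29807 bp. At all 53 the 3 tamoxifen libraries lay below the 3 oil libraries, with log2 changes of -3.83 to -0.71. Over all distal peaks 10.6% had the groups apart in this direction. The span was chosen after its values were seen, so the count of 53 is no evidence apart from that choice. Of the 53 peaks, 33 had an adjusted p under 0.05. The 2 promoter peaks of Hsph1 nearest to its TSS had log2 changes of 0.00 and -0.07 (adjusted p = 0.999 and 0.953), with 693, 683 and 661 tags after oil and 679, 713 and 648 after tamoxifen at the first of them. Another promoter peak, further upstream, had 17.6, 21.5 and 23.3 tags after oil and 7.73, 8.91 and 16.8 after tamoxifen (log2 change -0.90, adjusted p = 0.618), with the groups apart. The next 5 peaks past this stretch, in introns of Wdr95, had log2 changes of -0.64 to 0.10 and adjusted p of 0.771 or more. The nearest of them ended at chr5:149590437, whereas the stretch began at chr5:149606018, so its edge on this side is not sharply placed.

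**Figure D3:**
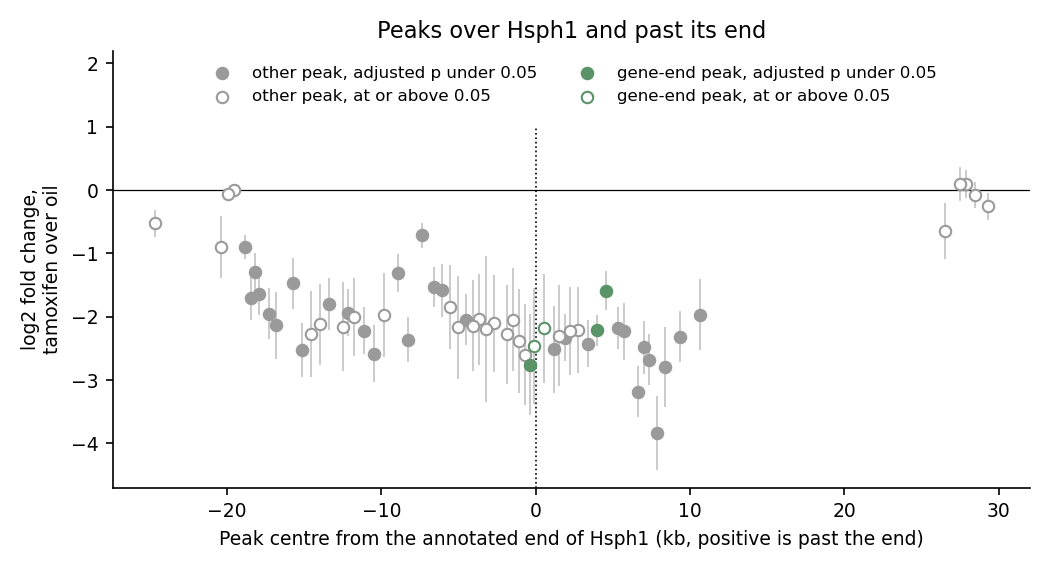
Log2 fold change (tamoxifen over oil, error bars are standard errors of the all-peaks fit) of each peak by its distance in kb from the annotated end of Hsph1, with gene-end peaks in green and other peaks in grey, filled where the adjusted p is under 0.05. All 53 peaks of the stretch lie below 0, its 5 gene-end peaks between -2.76 and -1.59, whereas the 2 promoter peaks at the TSS lie at 0.00 and -0.07. The stretch was chosen after its values were seen.

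The last lower call was a TTS peak of Ces4a, a carboxylesterase gene, at chr8:105150454-105150684. It had 79.1, 71.8 and 76.5 tags after oil and 26.9, 22.3 and 59.7 after tamoxifen (log2 change -1.05, SE 0.31, adjusted p = 0.0460). Tamoxifen replicate 4 stood closer to the oil libraries than to tamoxifen replicates 1 and 3, and the call was lost under edgeR (adjusted p = 0.0570). The next Ces4a TTS peak further on had 62.5 ± 7.24 and 63.3 ± 9.15 tags (SD, n = 3 each; log2 change 0.02, adjusted p = 0.993). The Ces4a 3' UTR peak had 23.8 ± 5.45 and 14.5 ± 0.998 (SD, n = 3 each; log2 change -0.72, adjusted p = 0.596), and its groups did not overlap.

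Called TTS peaks with more tags after tamoxifen numbered 11. Hopx, a homeodomain-only cofactor found in stem cells, had 10.0, 7.87 and 7.12 tags after oil and 35.5, 61.4 and 28.5 after tamoxifen at chr5:77086597-77086830 (log2 change 2.33, SE 0.44, adjusted p = 8.85e-05). It was the only called gene end with a promoter peak that also passed, at a log2 change of 1.48. The Frem2 TTS peak at chr3:53513092-53513416 had 7.80, 8.86 and 17.8 tags after oil and 55.6, 42.4 and 43.2 after tamoxifen (log2 change 2.01, adjusted p = 0.000106). Frem2 makes a basement membrane protein, and its peak was one of 4 that were called whichever library was left out, together with those of Asphd2 and Myo5a and the stronger one of Wdr95.

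Il18r1, Hdc and Csf2rb were among these 11. Il18r1, which encodes the ligand-binding chain of the interleukin-18 receptor, had 55.7, 46.2 and 49.8 tags after oil and 122, 156 and 79.9 after tamoxifen at its TTS peak chr1:40501212-40501899 (log2 change 1.23, adjusted p = 0.000502). At Hdc, the enzyme that makes histamine in mast cells, basophils and some myeloid cells, the TTS peak chr2:126593018-126593363 had 24.5, 29.5 and 22.2 tags after oil and 82.5, 80.3 and 30.3 after tamoxifen (log2 change 1.34, adjusted p = 0.0164). Here replicate 4 was almost at the level of the highest oil library, and edgeR did not call the peak (adjusted p = 0.0693). Csf2rb, named after its values were seen, encodes the signalling chain shared by the receptors for IL-3, IL-5 and GM-CSF, and its TTS peak chr15:78351475-78351859 had 44.6, 47.2 and 57.8 tags after oil and 115, 127 and 62.5 after tamoxifen (log2 change 1.02, adjusted p = 0.0184). The pattern of 2 high tamoxifen libraries and a lower replicate 4 was shared by all 3.

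Ctla4, an inhibitory receptor of T cells, had 20.1, 11.8 and 11.6 tags after oil and 46.0, 46.9 and 28.5 after tamoxifen at its TTS peak chr1:60916273-60916478, which holds the PU.1 letters printed above (log2 change 1.50, SE 0.38, adjusted p = 0.0129). The T-cell marker promoters Cd3e and Cd3d had no peak and Cd3g had 13.5 to 24.4 tags per library, 16.5 to 24.4 after oil and 13.5 to 20.1 after tamoxifen, near the lowest peaks of the table. The 3' UTR peak of Cd3d, in contrast, moved with Ctla4, from 212 to 233 tags after oil to 326 to 426 after tamoxifen (log2 change 0.69, adjusted p = 0.00251). Whether T cells had a part in the Ctla4 peak was not tested beyond this.

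Rgs1, a brake on G protein signalling from chemokine receptors, was the only gene called in both annotations among the higher peaks. Its TTS peak chr1:144244196-144244529 had 7.80, 12.8 and 19.6 tags after oil and 46.0, 80.3 and 23.9 after tamoxifen (log2 change 1.87, SE 0.43, adjusted p = 0.00318). The 3' UTR peak chr1:144244841-144245069 had 8.91, 11.8 and 17.8 after oil and 51.8, 99.3 and 25.7 after tamoxifen (log2 change 2.19, SE 0.64, adjusted p = 0.0490). In both, replicate 4 was the lowest tamoxifen library by a wide margin. Neither was called by edgeR (adjusted p = 0.0947 and 0.110), and another Rgs1 peak further past the end had 181 ± 14.3 and 233 ± 57.6 tags (SD, n = 3 each; log2 change 0.36, adjusted p = 0.511).

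The other higher TTS peaks had log2 changes of 1.00 to 1.21. They belonged, the last 2 named after their values were seen, to Olfr70 (an olfactory receptor, 1.00), Pla2g2f (a secreted phospholipase, 1.095), the lncRNA gene 2900052L18Rik (1.15) and Pck1 (the phosphoenolpyruvate carboxykinase of gluconeogenesis, 1.21). Pla2g2f had 41.2, 77.7 and 67.6 tags after oil and 123, 143 and 136 after tamoxifen, and its 3 tamoxifen libraries were close together. The Olfr70 value lay just past the fold limit, and 2900052L18Rik was not called when any 1 library was left out.

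Among 3' UTR peaks, 9 were called higher. The strongest evidence was at Asphd2, named for its aspartate beta-hydroxylase domain, whose peak chr5:112384795-112385078 with the RUNX letters had 81.3, 84.6 and 65.8 tags after oil and 169.8, 183 and 151 after tamoxifen (log2 change 1.12, SE 0.20, adjusted p = 1.09e-05). The TTS peak of the same gene had 21.9 ± 3.91 and 30.2 ± 4.59 tags (SD, n = 3 each; log2 change 0.47, adjusted p = 0.749). Myo5a, the myosin that carries melanosomes and other vesicles along actin, had 15.6, 13.8 and 14.2 tags after oil and 51.8, 44.6 and 49.6 after tamoxifen at chr9:75221938-75222198 (log2 change 1.75, SE 0.35, adjusted p = 0.000217). Its libraries were close together in both groups (SD 0.947 and 3.67 tags), and replicate 4 lay between the other 2 tamoxifen libraries. Magi2, a PDZ scaffold protein of cell junctions, had 57.9, 80.7 and 62.3 tags after oil and 144, 173 and 122 after tamoxifen (log2 change 1.12, adjusted p = 0.000124).

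Cdkn1a encodes p21, the p53-induced inhibitor of cyclin-dependent kinases, and had 3 peaks in its last exon. The peak nearest to the transcript end, chr17:29100327-29100556, had 37.9, 34.4 and 32.0 tags after oil and 97.8, 80.3 and 56.9 after tamoxifen (log2 change 1.17, SE 0.28, adjusted p = 0.00442). The middle one had 71.7 ± 4.35 and 117 ± 30.8 tags (log2 change 0.71, adjusted p = 0.103) and the farthest from the end 79.5 ± 3.49 and 125 ± 29.9 (SD, n = 3 each; log2 change 0.64, adjusted p = 0.141). The groups did not overlap at any of the 3, but only the first was called, and the Cdkn1a promoter peak had a log2 change of 0.11 (adjusted p = 0.855).

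Rabgap1, a GTPase-activating protein for Rab proteins, had 6.68, 17.7 and 14.2 tags after oil and 49.9, 51.3 and 31.2 after tamoxifen (log2 change 1.75, adjusted p = 0.00187), and the second 3' UTR peak of the gene had 9.90 ± 1.77 and 26.1 ± 6.83 (SD, n = 3 each; log2 change 1.40, adjusted p = 0.0956). Srgn, the core protein of the proteoglycan that packs granules in blood cells, had 34.5, 24.6 and 34.7 tags after oil and 61.4, 69.2 and 64.3 after tamoxifen (log2 change 1.05, adjusted p = 0.0175). Another 2 peaks with few tags completed the set, at Scn4b (a sodium channel subunit, log2 change 2.07) and Zscan12 (a zinc finger gene, 1.59), with 4.92 to 8.91 tags in the oil libraries. The called gene-end peaks had a median mean of 40.4 tags, from 16.3 to 123.

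Leaving out 1 library at a time, 4 of the 24 stayed called in all 6 fits and 9 in at least 5, while 9 were called in at most 1, among them the Scn4b and Zscan12 peaks, to which DESeq2 gave no adjusted p in 4 of the 6 fits. edgeR's quasi-likelihood test called 34 gene-end peaks (1.22% of all distal peaks were called), of which 19 were among the 24. Without tamoxifen replicate 4, 75 gene-end peaks were called, 47 higher and 28 lower, against 2.02% of distal peaks, and 23 of the 24 were among them. Of the 52 that were not among the 24, 28 were higher and 24 lower, and 10 of them lay at the ends of 6 heat shock and chaperone genes. Without tamoxifen replicate 3 the count was 6.

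Positions along the transcript end were known for 5331 peaks. TTS peak centres lay a median of 494 bp past the end (5th to 95th percentile -23.5 to 952 bp), and 3' UTR centres a median of -955 bp from it. Tag levels were alike across these positions, with medians of 43.0 to 48.8 tags in the TTS bins from -500 to 1000 bp and 37.9 to 46.9 in the 3' UTR bins. The median log2 change was -0.06 to -0.01 over the TTS bins. Calls were spread too, with 1 of 602 TTS peaks in the first 250 bp past the end, 7 of 791 in the next 250, 4 of 761 in the third and 2 of 754 in the last.

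**Figure D4:**
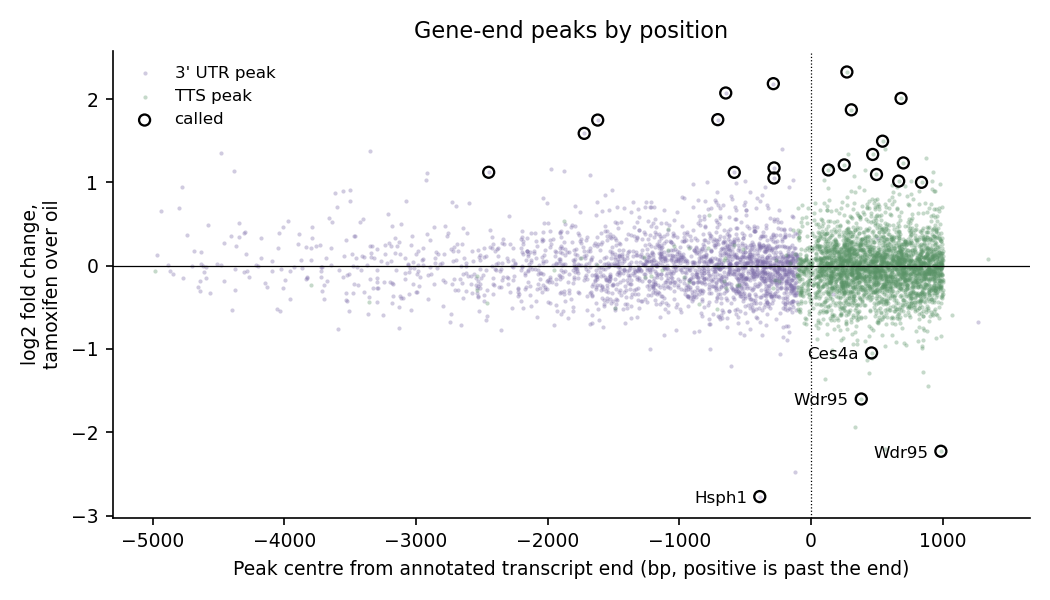
Log2 fold change of gene-end peaks by the distance of the peak centre from the annotated transcript end in bp (positive past the end), with 3' UTR peaks in purple, TTS peaks in green and called peaks ringed. Points centre on 0 along the whole range, and 3 of the 4 lower calls, named in the plot, lie below -1.5.

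The genes downstream differed in arrangement. No other gene lay within 5000 bp past the end for 2787 peaks (52.3%), of which 18 were called higher and 1 lower (0.682%, against 0.449% of all gene-end peaks). A convergent gene, one read towards the first, lay there for 1429 (26.8%), with 2 higher and 3 lower calls (0.350%), the lower ones being the Wdr95 and Hsph1 peaks. DESeq2 called 0 of the 434 peaks with a tandem gene and 0 of the 681 whose end another gene overlaps, and edgeR called 0 and 3. At an unadjusted p under 0.05 these 2 sets had 26 (5.99%) and 49 (7.20%), against 7.01% of all gene-end peaks. The shares with no gene and with a convergent gene were 7.53% and 6.23%. Whether the arrangements differ was not tested. The nearest TSS was that of the own gene for 50.7% of gene-end peaks and of another gene for 49.3%, with 15 and 9 calls. The own genes were protein-coding for 96.0% of peaks and lncRNA genes for 3.57%.

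Gene ends were also set beside the promoter of their own gene. A promoter peak (within 1000 bp of the TSS) was present for 4627 gene-end peaks, and its tags exceeded those of the gene end by a median ratio of 5.87. The log2 changes of end and promoter correlated weakly across these pairs (Pearson's r 0.194, Spearman's rho 0.163, a description over peaks that share libraries and of which some share a promoter). Of the 24 called peaks 14 had such a promoter peak, with a median log2 change of 1.46 at the end and 0.21 at the promoter, and only that of Hopx passed an adjusted p under 0.05.

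Most genes (2278 of 3452) had a single gene-end peak. Stum, chosen like the next for its number of peaks, had the most, 13, followed by Hjurp with 12, Zfand5 with 11 and Trim67 with 10, and 0 of these were called by DESeq2 or edgeR. At an unadjusted p under 0.05 there were 2, both of Hjurp, the chaperone of the centromeric histone, whose peaks had log2 changes of -0.61 to -0.02.

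Gene lists were read through the genes at whose ends the peaks lay. Heat shock and chaperone genes stood at 45 gene-end peaks of 21 genes, with a median log2 change of -0.29 (-0.02 over all gene-end peaks) and 20 lower and 3 higher at an unadjusted p under 0.05 (51.1% of the peaks, against 9.94% of distal peaks). At an adjusted p under 0.05 there were 3, all lower. Dnajb4, a J-protein that delivers clients to HSP70, had 164, 149.6 and 178 tags after oil and 99.7, 98.2 and 97.4 after tamoxifen in its 3' UTR (log2 change -0.74, SE 0.18, adjusted p = 0.00943). Hsp90ab1, the constitutive HSP90, had 531, 508 and 608 after oil and 263, 330 and 467 after tamoxifen at its TTS (log2 change -0.64, adjusted p = 0.0360, but 0.173 by edgeR), and the third was the Hsph1 peak. The groups did not overlap at any of these 3, with replicate 4 nearest to oil at Hsp90ab1 and Hsph1 only. The list was drawn up with the behaviour of heat shock genes in these libraries known, so its counts are no independent evidence.

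The inducible HSP70 genes had TTS peaks that did not pass with all libraries. At Hspa1b, chr17:34955433-34955726, the 3 oil libraries had 274, 269.6 and 370.1 tags and the tamoxifen libraries 78.6, 116 and 184 (log2 change -1.27, adjusted p = 0.0544). At Hspa1a, chr17:34968918-34969128, the values were 84.7, 85.6 and 142 after oil and 15.3, 16.7 and 49.6 after tamoxifen (log2 change -1.93, adjusted p = 0.0653). The groups were apart at both, and without tamoxifen replicate 4 the log2 changes were -1.66 and -2.71 with adjusted p of 3.78e-13 and 1.17e-10. Because the copies Hspa1a and Hspa1b are almost the same in sequence, reads within the genes could be split between them. The promoter peaks of Hspa1a and Hspa1b had log2 changes of -0.50 and -0.42 (adjusted p = 0.0186 and 0.00720), and that of Hsph1 0.00. Values of Hspd1, the mitochondrial HSP60, were 35.7 ± 7.72 and 13.8 ± 6.78 at its nearer TTS peak (SD, n = 3 each; log2 change -1.36, adjusted p = 0.0524), and at Dnajb1, the main HSP40 partner of HSP70, the 3 oil libraries had 236, 230.3 and 284 and the tamoxifen libraries 134, 203 and 171 at the TTS peak farther past the end (log2 change -0.57, adjusted p = 0.0860). Dnajb9, a J-protein of the endoplasmic reticulum, lay on the other side, at 103 ± 9.80 and 148 ± 39.4 (SD, n = 3 each; log2 change 0.52, adjusted p = 0.293).

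**Figure D5:**
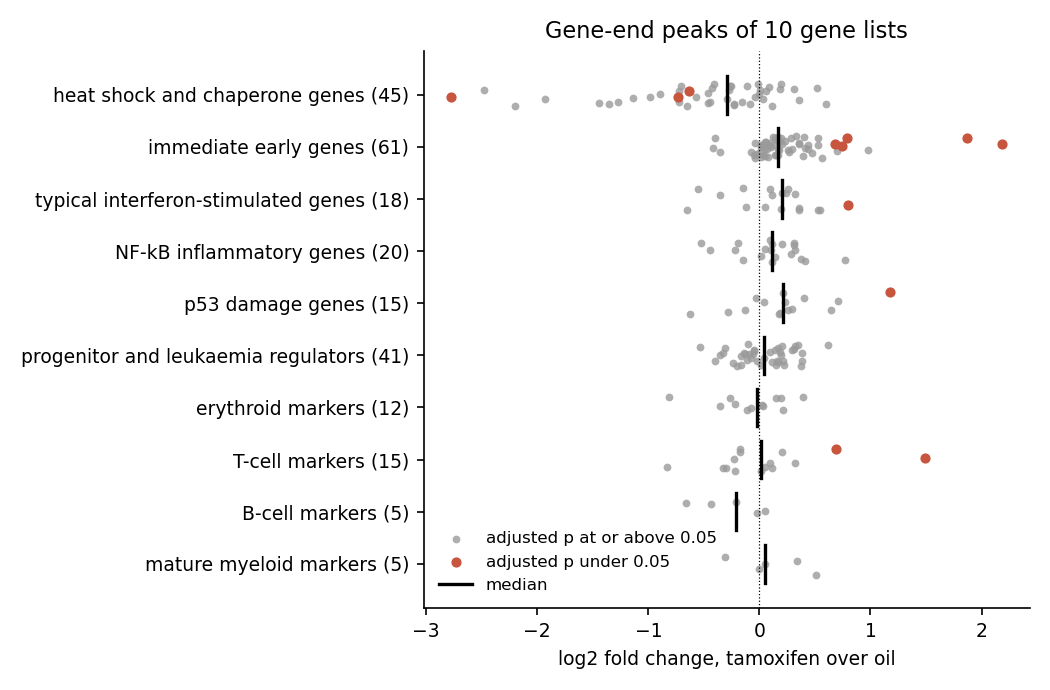
Log2 fold change of every gene-end peak whose gene is in 1 of 10 lists (number of peaks in parentheses), with a black bar at the median and red points where the adjusted p is under 0.05. Vertical scatter has no meaning. The heat shock list has its median at -0.29 and reaches -2.77, whereas the immediate early list has its median at 0.17 and reaches 2.19.

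Immediate early genes, the first to respond to growth and stress signals, had 61 gene-end peaks of 18 genes with a median log2 change of 0.17 (8 higher and 1 lower at an unadjusted p under 0.05, 14.8% against 9.94%). Both Rgs1 calls belong here, and the 3 TTS peaks of Jun, the AP-1 subunit, passed the adjusted p without a fold over 2. Jun had 267, 229 and 257 tags after oil and 397, 477 and 387 after tamoxifen at chr4:95048247-95048705 (log2 change 0.74, SE 0.15, adjusted p = 0.000274), and its other peaks had log2 changes of 0.79 and 0.68 (adjusted p = 0.000812 and 0.0146). At all 3 the groups did not overlap, and replicate 4 was close to replicate 1. This list, too, was drawn up with results of these libraries known.

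Typical interferon-stimulated genes, the genes that type I interferon switches on through ISGF3, had 18 gene-end peaks of 12 genes, of which 1 passed the adjusted p. Irf7, the interferon regulatory factor that amplifies the response, had 69.1, 65.9 and 72.1 tags after oil and 132, 134 and 95.5 after tamoxifen at its TTS peak chr7:141262177-141262647 (log2 change 0.80, SE 0.22, adjusted p = 0.0227). Its second TTS peak had 128 ± 10.1 and 187 ± 35.8 (SD, n = 3 each; log2 change 0.55, adjusted p = 0.138). Over the list the median log2 change was 0.20 (-0.02 over all gene-end peaks), with 2 higher and 1 lower at an unadjusted p under 0.05, or 16.7% against 9.94% of distal peaks.

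NF-kB inflammatory genes had 20 gene-end peaks and 0 passed the adjusted p of DESeq2 (2, or 10%, at an unadjusted p under 0.05, near the share of distal peaks, and 1 at the adjusted p of edgeR). The smallest p was at Nfkbiz, an inhibitor-like NF-kB cofactor, with 61.3, 45.3 and 53.4 tags after oil and 106, 105 and 62.5 after tamoxifen in the 3' UTR (log2 change 0.77, adjusted p = 0.119; edgeR adjusted p = 0.0538). Genes of the p53 damage response had 15, with Cdkn1a as the only call, where 0.449% of all gene-end peaks were called. At an unadjusted p under 0.05 they had 3 higher and 1 lower (26.7%, against 9.94% of distal peaks). The 41 peaks of progenitor and leukaemia regulators held 0 at an unadjusted p under 0.05 by DESeq2 and 0 at an adjusted p under 0.05 by edgeR, and the smallest p was at Myc (TTS, log2 change -0.36, adjusted p = 0.639), with 125, 106 and 184 tags after oil and 92.1, 114 and 119 after tamoxifen, where the groups overlapped.

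For other cell types, T-cell marker genes had 15 gene-end peaks. At an unadjusted p under 0.05 they had 2 higher and 1 lower (20%, against 9.94% of distal peaks). Over all gene-end peaks 0.449% were called. Ctla4 was called, and the 3' UTR peak of Cd3d, a chain of the T-cell receptor complex, had 223, 233 and 212 tags after oil and 326, 426 and 329 after tamoxifen (log2 change 0.69, SE 0.16, adjusted p = 0.00251), with the groups apart and no promoter peak at that gene. Lck, the kinase of that receptor, lay the other way at its TTS (log2 change -0.83, adjusted p = 0.0790, and 0.0208 by edgeR). The tags summed over the list ran from 1039.95 to 1111 in the oil libraries and from 1077 to 1262 in the tamoxifen libraries. Erythroid (12 peaks), B-cell (5) and mature myeloid (5) marker genes had 0 peaks at an adjusted p under 0.05 by DESeq2 or edgeR. At an unadjusted p under 0.05 they had 1, 1 and 0 (8.33%, 20% and 0%, against 9.94% of distal peaks). With so few peaks a lack of change cannot be read from these lists. The smallest p was at Car2 (log2 change -0.82, adjusted p = 0.314), Blk (-0.66, 0.463) and Cxcr2 (0.51, 0.711).

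Peaks that passed the adjusted p with a fold change of 2 or less numbered 25, 19 higher and 6 lower. Beside those named, Usp39, a deubiquitinase-like splicing factor, had 201, 179 and 201 tags after oil and 300, 388 and 294 after tamoxifen at its TTS (log2 change 0.76, adjusted p = 0.00104). On chromosome 9 the 3' UTR peak of Dnaja4, another HSP40 gene, at 54715081 to 54715999 (log2 change -0.70, adjusted p = 0.0470) and the TTS peak of Wdr61 at 54716479 to 54717014 (-0.90, adjusted p = 0.0150) lay side by side and both had fewer tags after tamoxifen. Wdr61 had 107, 91.5 and 132 tags after oil and 55.6, 49.1 and 71.6 after tamoxifen. The pairing of a chaperone gene and the end of a neighbour was chosen for mention after the values were seen. Pabpc1 (poly(A)-binding protein, -0.94) and Trim47 (-0.75) were the other lower ones.

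Of the genes of interest to the study, Usp18, Plk2, Ccl4, Il10, Fpr1, S100a8 and Isg15 had no gene-end peak among the members. Sgk1, the serum- and glucocorticoid-induced kinase, had 2. Its TTS peak had 182, 189 and 219 tags after oil and 285, 310 and 91.9 after tamoxifen (log2 change 0.22, SE 0.51, adjusted p = 0.946), and its 3' UTR peak 212, 230 and 203 after oil and 300.2, 324 and 138 after tamoxifen (log2 change 0.24, SE 0.37, adjusted p = 0.910). At both, tamoxifen replicates 1 and 3 lay above all oil libraries and replicate 4 below them. Without replicate 4 the log2 changes were 0.60 and 0.54 (adjusted p = 0.00633 and 0.0118).

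The most open gene ends had log2 changes near 0. By tags per 1000 bp the highest 3' UTR peak was that of Lars2, the mitochondrial leucyl-tRNA synthetase, at 4830.5 tags per 1000 bp (965 ± 94.0 tags in the oil and 987 ± 106 in the tamoxifen libraries, SD, n = 3 each), and the highest TTS peak that of Ctdsp1, a phosphatase acting on RNA polymerase II, at 3309.7 (687 ± 43.4 and 716 ± 71.0). The 5 most open TTS peaks, of Ctdsp1, Slc23a3, Tmem184a, Sertad1 and Fam120a, and the 5 most open 3' UTR peaks, of Lars2, St3gal2, Traip, Tmem143 and Dhh, had log2 changes of -0.03 to 0.06, all with adjusted p of 0.941 or more and standard errors of 0.11 to 0.13.

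In sequence, gene ends were close to other distal peaks. Their median GC content was 50.9% against 49.0%, the share of repeat-masked bases 9.39% against 11.2%, and the observed over expected CpG ratio 0.203 against 0.205. The polyadenylation signal AATAAA was found on either strand in 23.9% of TTS and 19.1% of 3' UTR peaks, against 20.9% of other distal peaks, and in 58.5% of the 147 TTS peaks centred up to 500 bp before the transcript end. AP-1 letters were in 8.80% of gene-end and 9.89% of other distal peaks, RUNX letters in 2.83% and 3.15%, PU.1 letters in 4.17% and 5.05%, and GATA letters (AGATAA) in 17.6% and 22.2%. The heat shock element (GAANNTTC) was in 5.47% and 6.12%, and the interferon-stimulated response element (GAAANNGAA) in 6.83% and 7.84%. These shares are over peaks of unequal length, with a median of 261 bp at gene ends and 253 bp over distal peaks.

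Of the 24 called peaks, 6 held the E-box CAGCTG (25%, against 18% of other distal peaks), 4 the glucocorticoid response element ACANNNTGT (16.7% against 9.21%) and 3 GATA letters (12.5% against 22.2%). The heat shock element was in 2 (8.33% against 6.12%), those of Frem2 and Csf2rb, both higher. None of the 4 lower ones held it, too few peaks to read a lack from. The wide Hsph1 TTS peak, which was not called with all libraries, did hold it. Letters of CTCF (AGGGGGCGC), NF-kB (GGGANTTCC), ETS (CCGGAAGT) and the interferon-stimulated response element were in none (0) of the 24, where 1.06%, 1.27%, 0.601% and 7.84% of other distal peaks held them. C/EBP letters (TTGCNNAA) were in 1, that of Il18r1, against 9.60%.

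The peaks next to the limit of 3000 bp differed in level, and their log2 changes ran from -0.22 to 0.31. Just outside it lay the TTS peaks of Pxn (188, 189 and 172 tags after oil and 161, 140.4 and 169 after tamoxifen) and Eif4ebp3 (57.4, 39.0 and 43.0, and 63.8, 53.5 and 54.9), and just inside, and so left out, those of Actrt3 (48.5, 58.5 and 66.3, and 65.7, 73.5 and 52.1) and Carmn (19.9, 23.4 and 25.1, and 32.9, 26.7 and 24.2).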

How the data were processed

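ATAC-seq libraries of sorted leukaemia cells from the oil (n = 3) and tamoxifen (n = 3) groups were aligned by the authors to mm10 with Bowtie2, peaks were found in each group with HOMER, and the 2 lists were merged. The deposited table gives tags per peak and library, an estimated count in which 1 mate of a read pair adds 0.5 tags, a position adds no more than 3, and depth is not adjusted for. Tags were rounded to whole numbers (0.5 to the nearest even number) and fitted with DESeq2 1.42.0 in R 4.3.3 over the 122399 distal peaks, with group as the only term. Peaks were called where the adjusted p was under 0.05 and the change more than 2-fold. Values are tags divided by DESeq2 size factors, fold changes are tamoxifen over oil, and errors are SD over libraries or SE of the fit. Hsph1 region, marker, promoter, Usp18 and 3000 bp limit values came from a fit of all 175929 peaks, so the Wdr95 and Hsph1 values there differ slightly. Shares of tags were compared by an exact two-sided permutation test over the 20 assignments of libraries. edgeR 4.0.16 and the alternatives given in the closing section were run as well.

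On simulated counts for the distal peaks DESeq2 recovered 63 of 100 peaks changed 2.5-fold and 92 of 100 changed 4-fold. The simulation gave every peak the same dispersion and changed only peaks above a minimum tag level. It held no library that stood apart as tamoxifen replicate 4 did, so recovery in the real libraries may be lower. Gene ends, neighbours and sequences came from RefSeq (GRCm38.p6, the mm10 assembly), and motifs were searched on both strands. Members and gene lists were chosen with earlier results of these data known. Named peaks were the called peaks whose groups did not overlap, up to 8 TTS and 8 3' UTR per direction by adjusted p, with the most open peaks (5 of each kind), the peaks of 8 genes of interest, the called or smallest-p peak of each gene list and the peaks next to the 3000 bp limit. Others are said to be named after their values were seen. Same-numbered libraries of both groups were not correlated in their deviations from the group means (-0.0505 for number 1 and 0.0410 for number 4), so the main fit had no replicate block.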

Additional observations from a re-analysis of the deposited data

How the results depend on the processing

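The count of 24 called gene-end peaks (14 TTS and 10 3' UTR) was 22 to 34 under other size factors, a filter at a mean of 10 tags, a fit of all peaks together, a TSS limit of 1000 bp, 0.5 tags rounded up (chosen after seeing the data), an adjusted p under 0.1 and edgeR, which called 17 3' UTR peaks. A TSS limit of 10000 bp left 12 (7 TTS, 5 3' UTR), with fewer peaks tested. No fold limit gave 49 (28 TTS, 21 3' UTR). Leaving out 1 library gave 6 to 75 (4 to 45 TTS and 2 to 30 3' UTR), namely 10, 11 and 12 without oil replicates 1, 2 and 4, and 13, 6 and 75 without tamoxifen replicates 1, 3 and 4. With a replicate block over the 4 libraries whose numbers both groups share, 2 gene-end peaks were called (2 TTS, 0 3' UTR), and the numbers did not pair the libraries. Of all distal peaks 1.22% were called by edgeR, 2.02% without tamoxifen replicate 4 and 1.41% with no fold limit. The counts under the other settings stand without such a share. They do not tell whether gene ends or distal peaks as a whole lost or gained calls. Of the called peaks, 15 had an adjusted p in the block fit and all but those of Scn4b and Zscan12 in each fit that left out 1 library. None turned its direction in a fit of the 122399 distal peaks or of all peaks that gave it an adjusted p. The difference in tag share of 0.00380 percentage points turned to -0.0457 as a share of distal tags, to -0.0151 at a TSS limit of 1000 bp and to -0.0113, -0.00898 and -0.0112 without oil replicates 1 and 2 and tamoxifen replicate 1 (range -0.0113 to 0.0317), with exact permutation p of 0.2 to 1 throughout. With 2 libraries against 3 the smallest possible p was 0.2. The cause of these changes was not tested. The median gene-end peak had 41 to 53 tags per library, so at most of them small changes were not detectable at this depth.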
